A study of Mus musculus with 5 samples.

Results

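The genes described are 5 regulators of G1, the phase in which a cell commits to copying its DNA: the inhibitors Cdkn1a and Cdkn1c, the D-type cyclins Ccnd1 and Ccnd2, and the E-type cyclin Ccne1. They were taken by symbol, as every spot whose only gene symbol in the platform annotation is one of these names. That gave 10 spots of the 17328 on each array, and 5 genes of the 5708 with a spot of their own. Cdkn1a and Ccnd2 had 1 spot each, Cdkn1c and Ccne1 had 2 each and Ccnd1 had 4, and all 10 were measured on every array. The study set RNA of mice labelled as Rb mutant (Rb-) against RNA of wild-type animals on 5 spotted arrays read in a pair of colours, the wild type listed as channel 1 and the mutant as channel 2. The samples are described as Rb knockout retina, and the title names retinal explants, which are pieces of retina kept in organ culture. The sources used here give no allele, strain, age or culture time, and do not say which retinal cells lack Rb. The 5 arrays make up 1 group of replicates, called arrays 1 to 5 in order of deposition. The labels do not say whether their RNA came from separate animals or cultures, so each p-value reflects array-to-array spread that may be purely technical.

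Every value is a log2 ratio of the 2 channels, centred on the median of its array. The labels name no dye for either RNA, and the ratio formula in the scanner notes, 635 over 532 nm, therefore does not tell which RNA is on top. A positive ratio is therefore not assigned to the mutant or to the wild type, and turning the order on all arrays would turn every sign given here. Means, counts of signs and tests over the 5 arrays take that order to be the same on each. The labels do not state this, and it was not tested. A ratio also carries no level, so whether the defining genes of retina were expressed could not be checked. In whole tissue, fewer cells of a type and less RNA per cell cannot be told apart. Because the median of the 3739 genes measured on all arrays lay at -0.39, 0.007, -0.43, 0.13 and -0.27 log2 on arrays 1 to 5, values relative to that median are given for each gene as well.

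D-type cyclins bind the kinases CDK4 and CDK6 in response to growth signals and start the phosphorylation of the Rb protein, which releases E2F transcription factors. Cyclin E1, itself an E2F target, then binds CDK2, completes that phosphorylation and carries the cell into S phase. The products of Cdkn1a (p21) and Cdkn1c (p57) bind cyclin-CDK complexes and block them. In the developing retina, cyclin D1 is the main D-type cyclin of dividing progenitors, and p57 is known in progenitors leaving the cycle and later in a subset of amacrine cells.

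RefSeq promoter windows were at hand for Cdkn1a and Ccne1. The Cdkn1a spot and 1 of the 2 Ccne1 spots (3306) had the highest means of the 10. They are shown as the 250 bases before each annotated start, build GRCm38.p6, 5′ to 3′ on the gene's strand. The first Cdkn1a window is chr17:29090729-29090978 (plus strand), the second, of the downstream start, chr17:29093519-29093768 (plus strand), and the Ccne1 window chr7:38107491-38107740 (minus strand). Capitals mark GGGCGG on either strand, the letters bound by SP1, and in the first Cdkn1a window the core letters CATG repeated with 6 bases between, the core spacing of a pair of p53 half-sites.
Cdkn1a upstream start: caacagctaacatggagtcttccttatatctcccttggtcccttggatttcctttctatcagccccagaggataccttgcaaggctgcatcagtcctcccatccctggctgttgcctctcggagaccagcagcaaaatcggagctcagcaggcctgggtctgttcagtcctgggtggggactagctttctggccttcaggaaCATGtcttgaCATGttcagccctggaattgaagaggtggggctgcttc
Cdkn1a downstream start: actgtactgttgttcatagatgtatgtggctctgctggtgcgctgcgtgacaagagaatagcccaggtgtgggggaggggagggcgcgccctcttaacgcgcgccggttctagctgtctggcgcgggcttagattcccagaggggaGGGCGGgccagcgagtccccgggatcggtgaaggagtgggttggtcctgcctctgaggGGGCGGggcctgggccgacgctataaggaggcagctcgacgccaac
Ccne1: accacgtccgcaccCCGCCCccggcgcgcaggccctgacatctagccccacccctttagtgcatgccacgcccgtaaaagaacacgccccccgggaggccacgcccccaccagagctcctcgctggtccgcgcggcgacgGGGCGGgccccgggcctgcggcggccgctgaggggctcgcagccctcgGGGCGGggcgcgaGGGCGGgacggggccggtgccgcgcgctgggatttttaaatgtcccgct

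The CATG pair stood at bases -48 to -35 of the first Cdkn1a window. It was searched after the sequences were seen, on a pattern that reads the same on both strands, and 0.49% of 32851 windows of this length held it. GGGCGG was found 2 times in the downstream Cdkn1a window and 4 times in that of Ccne1, and 32.7% of all windows held it on either strand. The 4 E2F forms searched on both strands, TTTCCCGC, TTTGGCGC, TTTCGCGC and TTTGCCGC, were not in these 3 windows, and 1.9% of all windows held one. Neither TATAAA, in 12.4% of all windows, nor CCAAT, in 33.8%, was found in them on either strand. No match in these windows therefore overlapped one of another motif. The Ccne1 window was 76% G and C with 34 CG pairs, against 54% with 2 pairs in the upstream and 64.8% with 19 in the downstream window of Cdkn1a, and a median of 52.4% over all windows. A match is a description of the letters and was not tied to any ratio.

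Over the 10 spots, the ratios separated on arrays 1 and 3 and lay close together on array 2. On array 1 the lowest was -2.18 (Ccnd1) and the highest 3.05 (Cdkn1a), and on array 3 they ran from -1.82 to 2.99, again from Ccnd1 to Cdkn1a. On array 2 all 10 lay between -0.31 and 0.50. On array 4 they ran from -0.31 to 1.75, and on array 5 from -0.76 to 1.00. The standard deviation among the 10 spots was 2.06, 0.25, 1.64, 0.75 and 0.52 log2 on arrays 1 to 5. All usable spots were also more spread on arrays 1 and 3. Their scaled median absolute deviation, a measure of spread, was 1.37, 0.83, 1.31, 0.90 and 0.97. A wider spread on arrays 1 and 3 was therefore shared with all spots, but these unlike measures do not compare its size. Above 1 log2 on array 1 lay 5 member spots, and below -1 lay 4, against 12.9% and 22.1% of 6753 spots measured throughout. On array 3 there were 4 and 2, against 10.8% and 24.8%. On array 2 there were 0 and 0, against 4.71% and 11.4%. These counts carry no test.

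**Figure D1:**
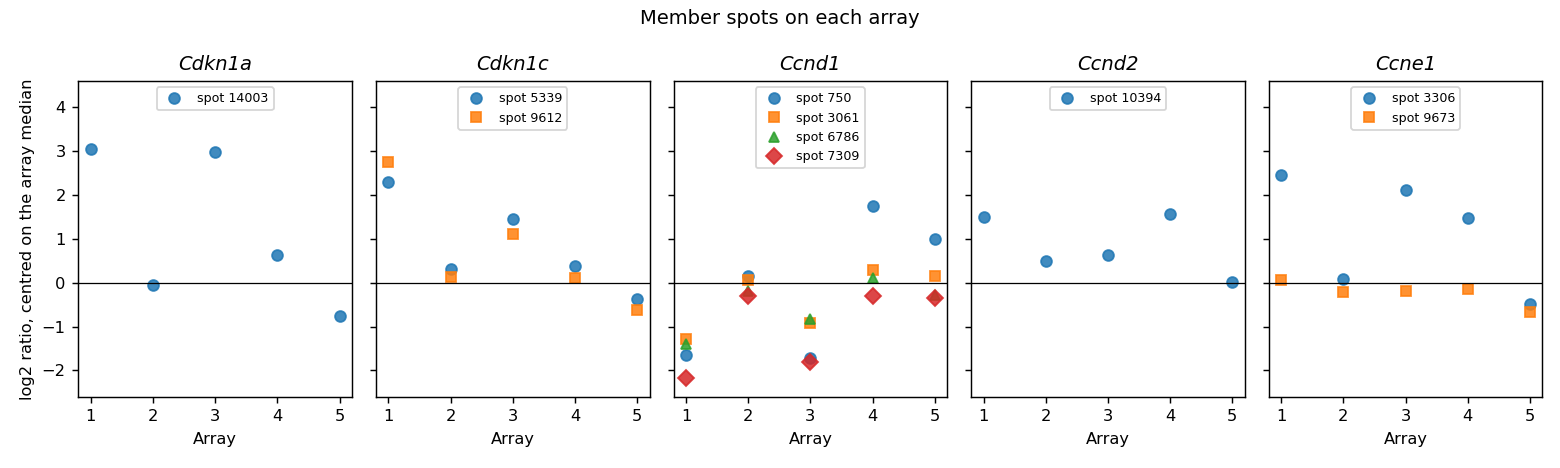
Log2 ratio of the 2 channels (vertical axis, centred on the array median) of each of the 10 spots on arrays 1 to 5 (horizontal axis), a panel per gene and a symbol per spot. Cdkn1a stood at 3.05 and 2.99 on arrays 1 and 3, where all 4 Ccnd1 spots were negative, and the 2 Ccne1 spots differed from each other.

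Of the inhibitors, Cdkn1a, which encodes the p53-responsive inhibitor p21, had the highest single ratio of the 10 spots. On its spot (14003) arrays 1 to 5 read 3.05, -0.055, 2.99, 0.64 and -0.76 log2. Arrays 1 and 3 were high, array 4 mildly positive, array 2 near 0 and array 5 negative. Among the 6753 spots measured on all arrays these stood at percentiles 98.9, 45.7, 98.8, 82.7 and 17.4, so Cdkn1a was near the top of arrays 1 and 3 and well below the middle of array 5. The mean was 1.17 ± 1.76 (SD, n = 5), with a limma adjusted p of 0.470 over all spots and 0.375 in an exact permutation of signs (two-sided, as all such tests here), where 5 arrays allow no p under 0.0625. The spread between arrays was larger than the mean, and without arrays 1 and 3, an alternative chosen after seeing the data, the mean was -0.057. Relative to all genes Cdkn1a had 3.44, -0.062, 3.42, 0.51 and -0.48.

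Cdkn1c, which encodes the inhibitor p57 and is imprinted, with expression mainly from the maternal allele, was measured by a pair of similar spots. Spot 5339 had 2.30, 0.30, 1.46, 0.38 and -0.37 on arrays 1 to 5, and spot 9612 had 2.74, 0.14, 1.11, 0.10 and -0.61. Both were positive on arrays 1 to 4 and negative on array 5, and both were highest on array 1. Their mean over arrays was 0.76 ± 1.17 (SD, n = 5), with a limma adjusted p of 0.388 over all genes and an exact sign-flip permutation p of 0.3125. It was -0.0092 without arrays 1 and 3. The spots differed by 0.12 ± 0.32 on average, with a root mean square difference of 0.31. Over the 790 pairs of spots of 1 gene on the platform the median of that difference was 0.88, with quartiles of 0.57 and 1.44. The Cdkn1c pair therefore lay below the lower quartile.

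The 2 inhibitors were high on the same arrays and differed from each other by less than their spread. Cdkn1a minus Cdkn1c was 0.53, -0.28, 1.71, 0.40 and -0.26 on arrays 1 to 5. The mean difference was 0.42 ± 0.81 (SD, n = 5), with an exact sign-flip permutation p of 0.375, also 0.375 after Benjamini-Hochberg adjustment over the 2 pairs of genes compared. Array 3 carried the widest gap, and without it the mean difference was 0.096. Such a difference within an array does not depend on how arrays are centred.

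The D-type cyclins Ccnd1 and Ccnd2 lay on opposite sides of 0 on arrays 1 and 3. As centred, Ccnd2 was positive on all 5 arrays, with 1.49, 0.50, 0.64, 1.57 and 0.028 on arrays 1 to 5 (spot 10394). It was highest on arrays 1 and 4, and close to 0 on array 5. That sign depended on the centring, since the deposited values were 0.735, 0.472, -0.075, 1.51 and -0.714, negative on arrays 3 and 5, with a mean of 0.39. The centred mean of 0.84 ± 0.67 (SD, n = 5) had a limma adjusted p of 0.432 over all spots and 0.334 over all genes, and an exact sign-flip permutation p of 0.0625, the smallest possible. Relative to all genes it had 1.88, 0.49, 1.07, 1.44 and 0.30.

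Ccnd1, which encodes cyclin D1, was followed by 4 spots that shared a pattern and differed in size. Spot 7309 was negative on every array, with -2.18, -0.31, -1.82, -0.31 and -0.36 on arrays 1 to 5 and a mean of -0.99 ± 0.93 (SD, n = 5, limma adjusted p = 0.432). Spot 6786 had -1.40, -0.19, -0.83, 0.10 and -0.27, and spot 3061 had -1.28, 0.071, -0.92, 0.29 and 0.15. Spot 750 had -1.65, 0.15, -1.72, 1.75 and 1.00. All 4 spots were at their lowest on arrays 1 and 3. They parted on array 4, where spot 750 was at 1.75, percentile 97.3 of all spots measured throughout, and spot 7309 at -0.31. The mean of spot 750, -0.094 ± 1.56 (SD, n = 5), moved with the centring and scaling, from -0.55 uncentred to between 0.014 and 0.14 under 4 other settings, and gives no direction.

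Averaged over the 4 spots, Ccnd1 had -1.63, -0.067, -1.32, 0.46 and 0.13 on arrays 1 to 5. The mean was -0.49 ± 0.93 (SD, n = 5), with a limma adjusted p of 0.480 and an exact sign-flip permutation p of 0.4375. Relative to all genes it had -1.24, -0.074, -0.89, 0.33 and 0.40, below them on 3 arrays and above them on 2. Without arrays 1 and 3 its mean was 0.17.

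Ccnd2 minus Ccnd1 was 3.12, 0.56, 1.96, 1.11 and -0.10 on arrays 1 to 5. The difference was positive on 4 of 5 arrays, largest on array 1 and slightly negative on array 5. Averaged over arrays it was 1.33 ± 1.25 (SD, n = 5), with an exact sign-flip permutation p of 0.125, or 0.25 adjusted over the 2 pairs. It stayed positive without each array in turn, between 0.88 and 1.69, and was 0.52 without arrays 1 and 3.

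Within Ccnd1, 6 pairs of spots were compared. Spot 7309 lay below each of the others on all 5 arrays, by 0.48 ± 0.40 against spot 6786, 0.66 ± 0.24 against spot 3061 and 0.90 ± 0.79 against spot 750 (SD, n = 5). Each of these had an exact sign-flip permutation p of 0.0625, the smallest possible, or 0.125 after adjustment over the 8 pairs of spots tested. Spots 3061 and 6786 were closest, with a root mean square difference of 0.25. All spots are credited to Ccnd1 by the annotation, and which part of the transcript each covers is not given in the sources used here.

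Ccne1, which encodes the cyclin of S-phase entry, was measured by 2 spots that differed widely in size. Both were highest on array 1 and lowest on array 5. Spot 3306 had 2.45, 0.092, 2.11, 1.48 and -0.48 on arrays 1 to 5. It was high on arrays 1, 3 and 4, at percentiles 97.9, 97.1 and 96.2, and negative on array 5. Spot 9673 had 0.073, -0.21, -0.19, -0.14 and -0.66, within 0.73 log2 over the 5 arrays, the narrowest range of the 10 spots. The means were 1.13 ± 1.27 (SD, n = 5, limma adjusted p = 0.441) and -0.22 ± 0.27 (SD, n = 5, limma adjusted p = 0.676).

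Spot 3306 was above spot 9673 on all 5 arrays, by 2.38, 0.30, 2.29, 1.62 and 0.18. The mean difference was 1.35 ± 1.06 (SD, n = 5), with an exact sign-flip permutation p of 0.0625, the smallest possible, and 0.125 adjusted over the 8 pairs of spots. The root mean square difference of 1.65 was above the upper quartile of 1.44 for pairs of spots of 1 gene. Of the members with several spots, Cdkn1c thus had a pair closer than most and Ccne1 a pair farther apart than most. Ccnd1 had pairs of both kinds. Its root mean square differences ran from 0.25 (spots 3061 and 6786) to 1.15 (spots 750 and 7309), against a platform median of 0.88. The mean of both Ccne1 spots was 0.45 ± 0.75 (SD, n = 5, limma adjusted p = 0.459), and it was -0.0054 when arrays were not centred, and 0.015 without arrays 1 and 3, so the gene has no settled sign.

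**Figure D2:**
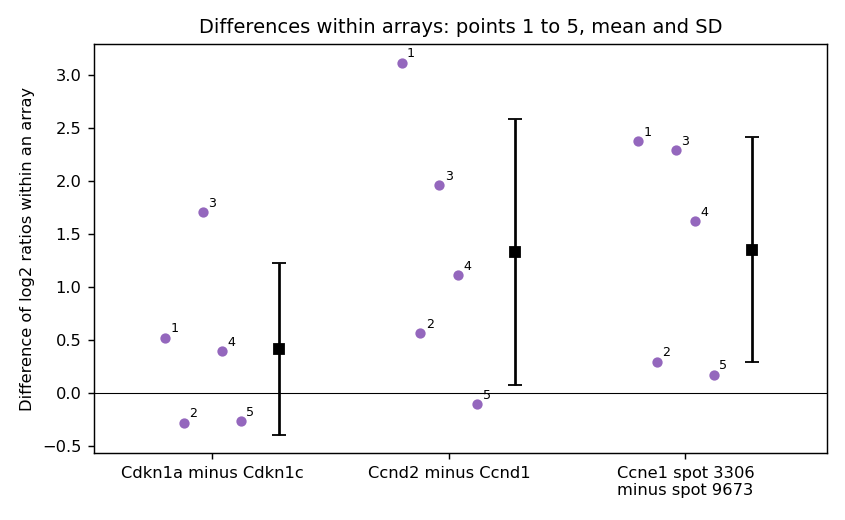
Differences of log2 ratios within an array (vertical axis) for Cdkn1a minus Cdkn1c, Ccnd2 minus Ccnd1 and Ccne1 spot 3306 minus spot 9673; numbered points are arrays 1 to 5, squares the mean and bars the SD. Ccnd2 exceeded Ccnd1 on 4 of 5 arrays, the first Ccne1 spot exceeded the second on all 5, and Cdkn1a minus Cdkn1c had both signs.

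No member passed the test across the platform. Of the 10 spots 0 had a limma adjusted p under 0.05, against 0% of the 10036 spots tested, and 0 of the 5 genes did, against 0% of 3739 genes. The unmoderated test also gave 0 in both tables. At an unadjusted p under 0.05 there were 2 of the 10 spots, Ccnd2 and Ccnd1 spot 7309, where 11.4% of all spots reached that level. In the gene table there was 1 of 5, Ccnd2, where 14.5% of all genes did. Shares this near the background are no result about the members.

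Signs on single arrays were counted in the same way. Positive on all 5 arrays as centred was 1 of the 10 spots, Ccnd2, against 4.01% of the 6753 spots, and negative on all 5 was 1, Ccnd1 spot 7309, against 11.2%. Because arrays 1 and 3 stood apart, spots past 1 log2 on both were counted too, a choice made after the values were seen. Above 1 on both were 4 of the 10, Cdkn1a, both Cdkn1c spots and Ccne1 spot 3306, against 4.87% of all spots. Below -1 on both were 2, Ccnd1 spots 750 and 7309, against 10.5%. The members share genes among their spots and were picked with earlier results of these arrays known, so these shares carry no test.

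**Figure D3:**
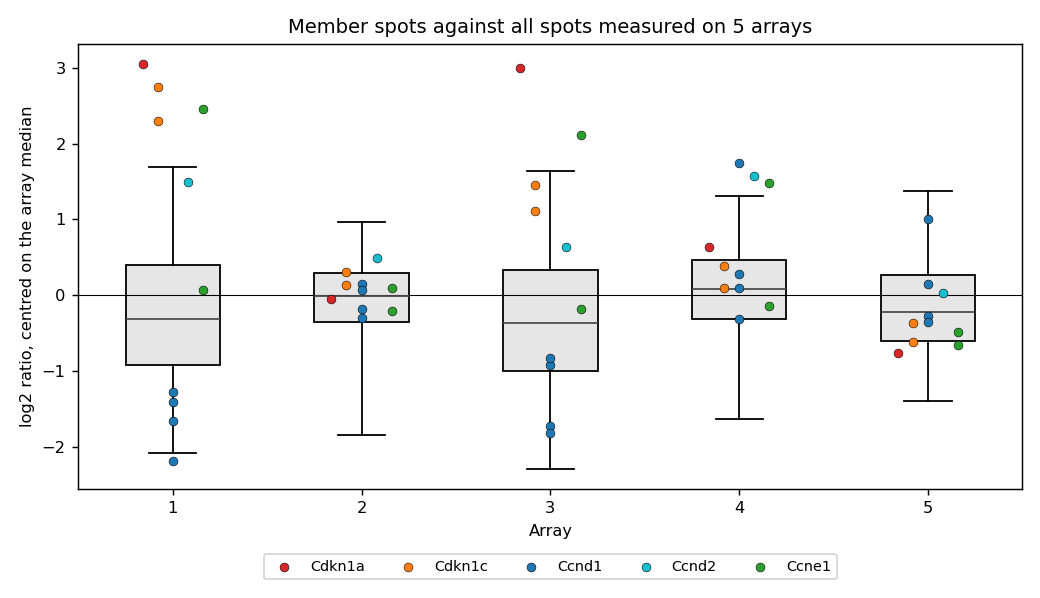
The 10 member spots (points, coloured by gene) over the 6753 spots measured on all arrays (boxes, median and quartiles; whiskers, 5th and 95th percentiles) on arrays 1 to 5, as centred log2 ratios. Cdkn1a, both Cdkn1c spots and a Ccne1 spot lay above the upper whisker on array 1, Ccnd1 spot 7309 lay below the lower one, and on array 2 every member lay within the whiskers.

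The scanner's focus position, per the labels, was 10 for arrays 1 to 3 and 0 for arrays 4 and 5, and the gain of the 635 nm channel ran from 840 to 890 while that of the 532 nm channel was 730 throughout. With arrays 1 to 3 alone the gene means were 1.99 for Cdkn1a, 1.34 for Cdkn1c, -1.01 for Ccnd1, 0.88 for Ccnd2 and 0.72 for Ccne1. With arrays 4 and 5 alone they were -0.057, -0.12, 0.29, 0.80 and 0.051. The means of Cdkn1a, Cdkn1c and Ccnd1 thus differed in sign between the scan groups, while the mean of Ccnd2 was nearly equal in both. On arrays 4 and 5 Cdkn1a had 0.64 and -0.76 and Cdkn1c 0.24 and -0.49, so their means there join opposite signs. Ccnd1 had 0.46 and 0.13. The mean of Ccnd2 also joins unlike arrays, with 1.49, 0.50 and 0.64 on arrays 1 to 3 and 1.57 and 0.028 on arrays 4 and 5. Array 2 belongs to the first group and did not share the large ratios of arrays 1 and 3. The part of scanning in the result was not tested.

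Other genes of the G1 pathway were read from lists of kinases, cyclins, inhibitors, Rb partners and their regulators. Of 12 other G1 kinases and cyclins listed, 6 were measured on all arrays, and 0 passed with limma over all genes. At an unadjusted p under 0.05 there were 0 of the 6, against 14.5% of all genes. The median of the means of these 6 was -0.015, against -0.22 over all 3739 genes. Those with the smallest p were Ccnh, the cyclin of the CDK-activating kinase, at 0.36 ± 0.28, the phosphatase Cdc25a at 0.34 ± 0.62, the chaperone partner Cdc37 at -0.22 ± 0.29 and the third D-type cyclin Ccnd3 at -0.19 ± 0.41 (SD, n = 5, limma adjusted p from 0.389 to 0.670). Ccnd3 had 0.41, -0.21, -0.58, 0.0035 and -0.56 on arrays 1 to 5, smaller in size than Ccnd1 and Ccnd2 on array 1. Of 6 other CDK inhibitors listed, 1 was measured throughout. It was Cdkn2d, which encodes the CDK4 and CDK6 inhibitor p19, with 0.55, -0.042, -0.24, 0.24 and -0.30 and a mean of 0.040 ± 0.35 (SD, n = 5).

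The Rb relatives, E2F factors and their partners, on which G1 kinases act, had 7 genes measured of 13, with 0 called. At an unadjusted p under 0.05 there were 2, E2f1 and Rbl1, both positive. Of all 3739 genes 14.5% reached that level, 123 positive and 418 negative. E2f1 had 1.92, 0.45, 1.92, 0.23 and 0.88 and Rbl1, the gene of p107, 1.70, 0.27, 1.48, 0.68 and 0.23 on arrays 1 to 5. Both were positive throughout and highest on arrays 1 and 3. Among 9 of 15 genes that direct the breakdown of cyclins and inhibitors, 0 were called and 1, Cul4a, had an unadjusted p under 0.05. Skp2, the ubiquitin ligase subunit that targets CDK inhibitors, had 2.17, -0.027, 1.33, 0.75 and -0.31 (mean 0.78 ± 1.01, SD, n = 5, limma adjusted p = 0.352). Cul4a, a cullin scaffold, had a mean of -0.79 ± 0.80, its partner Ddb1 -0.46 ± 0.34 and the RING subunit Rbx1 -0.51 ± 0.65 (SD, n = 5).

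Cdkn1a is a known target of p53, and other targets were measured for comparison. Of 16 listed, 5 were measured throughout, 0 passed with limma and 1, Btg2, had an unadjusted p under 0.05, with a negative mean. Of all genes 14.5% reached that level. The antiproliferative gene Btg2 had -1.94, -0.47, -1.02, 0.32 and -0.89 on arrays 1 to 5, negative on arrays 1 and 3 where Cdkn1a was highest. Gadd45a, a stress-response gene, had -0.65, 0.13, -0.34, -0.50 and -0.66. The sestrins differed from each other, with a mean of -0.54 ± 1.05 for Sesn1 and 1.25 ± 1.66 for Sesn2 (SD, n = 5). The median of the 5 relative to all genes was -0.38, 0.13, 0.093, 0.17 and 0.17. On array 1, 1 of the 5 lay above all genes, and on array 3, 3 did. Whether p53 has a part in the ratio of Cdkn1a was not tested. Of p53 and its regulators, 3 of 9 were measured throughout, 0 passed, and 1 of each sign had an unadjusted p under 0.05 (Usp7 and Atm). They were the deubiquitinase Usp7 at -2.11 ± 1.39, the DNA damage kinase Atm at 0.91 ± 0.79 and the p53 inhibitor Mdm4 at -0.047 ± 0.44 (SD, n = 5, limma adjusted p from 0.334 to 0.927).

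The medians of genes of cycling cells and of rod genes were largest in size on arrays 1 and 3, with opposite signs. The 17 replication genes measured, of 30 listed, had medians relative to all genes of 1.74, -0.10, 2.02, 0.64 and 0.050 on arrays 1 to 5. The 11 of 25 genes of G2 and mitosis had 2.25, 0.12, 2.21, 0.86 and 0.056. The 13 of 20 rod genes had -3.06, 0.072, -3.49, -0.53 and 0.16. In these lists 0 genes passed with limma over all genes. At an unadjusted p under 0.05 there were 6 replication, 5 mitosis and 5 rod genes, the rod genes negative and the others positive. Of all 3739 genes, 541 (14.5%) reached that level, 123 positive and 418 negative. Pcna, the DNA polymerase clamp, had 1.21, -0.074, 1.88, 1.20 and 0.34 on arrays 1 to 5, and the mitotic kinase gene Cdk1 had 3.78, -0.085, 2.36, 1.17 and 0.007. Counted against the all-gene median, 0 rod genes were higher on array 1 and 1 on array 3, against 7, 2 and 8 on arrays 2, 4 and 5, while all 17 replication genes were higher on arrays 1 and 3. Cdkn1a, Cdkn1c and Ccne1 spot 3306 were thus high, and Ccnd1 low, on the arrays where replication genes were high and rod genes low. Whether the mix of cells sets the members' ratios was not tested.

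Other cell types gave smaller list medians, while single genes went farther. As centred, cone genes ran from -4.51 to 0.94 on array 1 and from -4.18 to -0.015 on array 3. At an unadjusted limma p under 0.05 there were 2 cone genes and 0 ganglion cell genes. The bipolar, amacrine and horizontal, Muller glia and progenitor lists had 1 each. All of these were negative, and 14.5% of all genes reached that level. Relative to all genes, the medians on arrays 1 and 3 were -0.94 and -1.13 for 7 of 12 cone genes, -0.24 and -0.74 for 3 of 10 bipolar genes, 0.33 and -0.055 for 7 of 13 amacrine and horizontal genes, -0.68 and -0.60 for 4 of 9 ganglion cell genes, -0.31 and -0.17 for 7 of 12 Muller glia genes and -0.037 and 0.53 for 5 of 14 progenitor genes. For lens, vessels, microglia, astrocytes and myelin 2 or fewer genes were measured throughout, and for pigment epithelium, blood and fibroblasts 0 were.

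**Figure D4:**
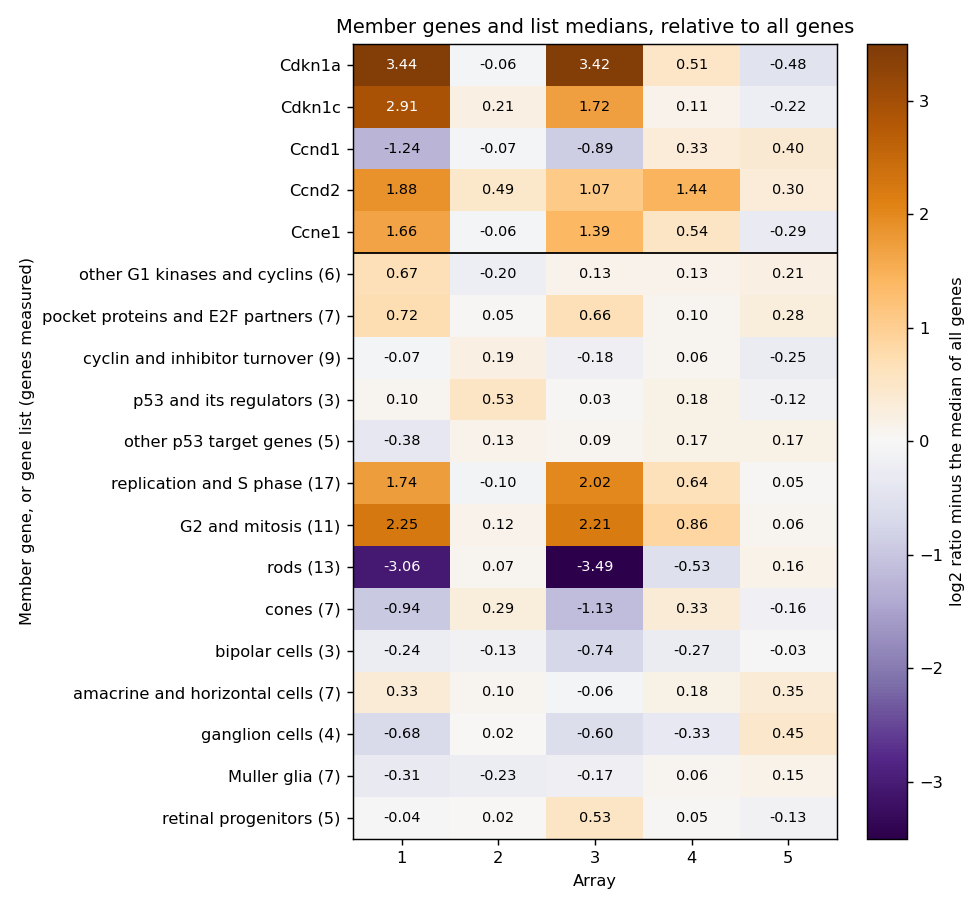
Log2 ratio minus the median of all genes on arrays 1 to 5 (columns) for the 5 genes (above the line, mean of a gene's spots) and for the median of each list with at least 3 measured genes (below it, number in brackets). Rods at -3.06 and -3.49 and replication genes at 1.74 and 2.02 mark arrays 1 and 3, where Cdkn1a had 3.44 and 3.42.

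To find genes of like pattern, the widest-ranging spot of each member was set against the 4410 other single-symbol spots measured on all arrays, by the root mean square difference of log2 ratios over the 5 arrays. Nearest to Cdkn1a were Foxn4 (0.25), Lmnb1 (0.30) and Mcm6 (0.48), where the median over all spots was 2.30. Foxn4 had 2.84, -0.092, 2.99, 0.64 and -0.23 on arrays 1 to 5, close to Cdkn1a on arrays 1 to 4 and less negative on array 5. It encodes a transcription factor of retinal progenitors and is in the list of their markers. That list as a whole did not share the pattern. Its median relative to all genes was -0.037 on array 1 and 0.53 on array 3, with 2 and 3 of 5 genes above all genes. Lmnb1 encodes lamin B1 of the nuclear envelope and Mcm6 a subunit of the replicative helicase. The other Mcm6 spot was 2.21 away from Cdkn1a, close to that median. Nearest to Cdkn1c spot 9612 were Nrcam (0.20), Mcm2 (0.32) and Ccnf (0.35), against a median of 1.71. Nrcam encodes a neuronal adhesion protein and Ccnf an F-box protein of the cyclin family. Nearest to Ccne1 spot 3306 were the kinetochore gene Nuf2 (0.29), Gins1 (0.30) and Mcm5 (0.38), against a median of 1.94. For Ccnd2 they were Pros1 (0.24), Msmo1 (0.30) and Msn (0.32), and for Ccnd1 spot 750 Bahd1 (0.38), Mid1ip1 (0.44) and Marchf2 (0.46), against medians of 1.36 and 1.35. The other Mid1ip1 spot was 1.36 away from Ccnd1 spot 750, no nearer than that median. Mcm6, Mcm2, Mcm5 and Gins1 are in the list of replication genes and Ccnf in that of G2 and mitosis, and this nearness over 5 arrays is a description with no test.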

How the data were processed

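The authors deposited 1 log2 ratio per spot and array. Per the labels, the scans (635 and 532 nm) were read in GenePix Pro 4.1.1.29, which subtracted the local background and applied no normalization. What left cells empty is not given in the sources used here. That the scale is log2 was read from the values, since a recurring top value of 16.61 is the log2 of a round number. Cells at 16.61 (106 to 141 an array) were treated as filler and set to missing, and 12444 to 13145 of 17328 spots an array remained. Deposited medians were -0.76, -0.025, -0.72, -0.058 and -0.74 on arrays 1 to 5, and each array was centred on its own. Intensities were not used, so the number of arrays limits the precision.

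Genes were named from the platform annotation through gene IDs of the RefSeq table of GRCm38.p6, which matched 7663 of 7914 spots with a single symbol; 353 had several and 9061 none. Spots measured on at least 4 arrays were tested against 0 by an intercept model in limma 3.58.1 under R 4.3.3 (p adjusted by Benjamini-Hochberg), and so was a gene table of the mean of spots measured on all 5. The 192 control spots for ACTB were left out. Differences within arrays used exact sign-flip permutations. The limma fit was tested on simulated data, and recovery was required there only at a spread well below that of these arrays. Named were all member spots, up to 4 genes a pathway list with the smallest limma p, and 3 nearest genes a member. Members and lists were chosen with earlier results of these data known. Alternatives were other centring and scaling, the filler kept, other filters and tests, each array or scan group left out, and, chosen after seeing the data, arrays 1 and 3 left out together.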

Additional observations from a re-analysis of the deposited data

Results flagged for a closer look

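Each of 65 results was searched for 1 array lying apart from the remaining 4, and 3 had one, where chance gives about 1 in 20, or 3.25. For Cdkn1c, spot 5339 minus spot 9612 was -0.45 on array 1 and between 0.17 and 0.35 elsewhere, so the spots of this gene changed order on the array where both were highest. For the other p53 target genes, the list median relative to all genes was -0.38 on array 1 and between 0.093 and 0.17 elsewhere. For the retinal progenitor genes it was 0.53 on array 3 and between -0.13 and 0.052 elsewhere.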

How the results depend on the processing

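Of 270 values under alternatives, 248 kept their direction and their side of the threshold and 22 changed sign. Part of this count was fixed in advance. The differences within arrays cannot change with the centring, and their exact p cannot fall under 0.05. Cdkn1a and Ccnd2 have 1 spot each, so the same mean was counted for the gene and for the spot. No spot passed in any of the 18 alternatives run for the count of spots. With arrays 4 and 5 alone (focus position 0) the means turned to -0.057 for Cdkn1a, -0.12 for Cdkn1c (spot 9612 -0.26) and 0.29 for Ccnd1 (spot 3061 0.22, spot 750 1.38). Without arrays 1 and 3 they were -0.057 for Cdkn1a, -0.0092 for Cdkn1c (spot 9612 -0.12), 0.17 for Ccnd1 (spot 3061 0.17, spot 750 0.97) and -0.047 for Cdkn1a minus Cdkn1c. Uncentred, Ccne1 was -0.0054, Cdkn1a 0.71, Cdkn1c 0.30, Ccnd1 -0.94, Ccnd2 0.39 and Ccnd1 spot 750 -0.55. Ccnd1 spot 750 was 0.072 centred on spots measured on all arrays, 0.098 centred on all genes, 0.14 scaled to a common spread and 0.014 quantile normalized, and leaving out 1 array gave -0.55 to 0.31 (0.30 without array 1, 0.31 without array 3). The cause of these changes was not tested beyond the arrays left out. Leaving out each array in turn gave 0.71 to 1.66 for Cdkn1a, 0.31 to 1.07 for Cdkn1c, -0.72 to -0.20 for Ccnd1, 0.66 to 1.05 for Ccnd2 and 0.25 to 0.71 for Ccne1. No paired analysis was possible because the arrays form 1 group and each ratio already sets both RNAs against each other. The planned comparison of protein sequences was not run. With 5 arrays the exact test cannot fall under 0.0625.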
